A study of Mus musculus with 5 samples.

Results

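The genes of the brain's blood vessels were followed through amygdala astrocyte preparations by taking the 30 rows of the deposited count table whose symbols mark endothelial cells (17 genes), pericytes (7) or vascular smooth muscle (4), or encode the angiogenic ligands Vegfa and Angpt1 (2), out of 35976 rows in all. All 30 symbols were found, and 27 had counts high enough to be tested. Every mouse carried the genotype Ccr2::CreERT2/+;DTR/+, a tamoxifen-inducible Cre under Ccr2 with an allele for the diphtheria toxin receptor, and every mouse was given tamoxifen and 18 days of tube restraint, with fear conditioning and extinction afterwards. During restraint they received saline (2 libraries, replicates 1 and 2) or diphtheria toxin, DTx (3 libraries, 5A, 6A and 7A), a design meant to deplete monocytes. Ages are not stated in the labels. Values are always given in that order of libraries. The basolateral amygdala was digested with papain and astrocytes were taken on anti-ACSA-2 beads. The series text gives 3 animals for each treatment. The labels tie no column to a stated animal, so a p here measures library-to-library spread, which may be technical.

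Brain capillaries are tubes of endothelial cells sealed by tight junctions and lined with efflux and uptake transporters, which together form the blood-brain barrier. Pericytes sit in the wall of the capillary and are recruited by endothelial platelet-derived growth factor acting on Pdgfrb, while arteries and arterioles are wrapped by contractile smooth muscle. Astrocyte endfeet cover this wall, and astrocytes release ligands such as VEGF-A and angiopoietin-1 that act on endothelial receptor tyrosine kinases.

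In these libraries the pericyte genes Rgs5 and Vtn were well counted and the defining endothelial genes Cldn5, Pecam1 and Cdh5 had at most 1.43 CPM, and none of the 27 vascular genes tested passed the threshold between DTx and saline. Most pericyte genes shared their highest and lowest libraries, which were both saline, while the order of the DTx libraries varied by gene. All 7 pericyte genes had their highest level in saline replicate 2, and 5 of the 7 had their lowest in saline replicate 1. Rgs5, Kcnj8, Vtn and Higd1b were 2.73-fold to 3.61-fold lower in replicate 1 than in replicate 2. Pdgfrb was nearly level, at 23.8 to 25.9 CPM over all libraries. Between the groups, Angpt1 was higher in every DTx library than in both saline libraries, and Kdr, the main signalling receptor of VEGF-A, was lower in every DTx library, but neither passed the test over all genes.

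Total counts were 15961220 to 23720299 per library, and 15532 genes were tested with edgeR's quasi-likelihood test with Benjamini-Hochberg adjustment over all of them. Xist gave 6615 counts under saline against 3 under DTx, and the Y-linked Ddx3y gave 5 against 6539, so sex-chromosome expression and treatment cannot be told apart in any comparison below. Ccr2 gave 0 counts under saline and 62 in the libraries labelled DTx, 54 of them in 5A. That is at least 17.3-fold higher, with a floor of 3 counts over the saline group, where fewer Ccr2-expressing cells were the aim. The directions below are therefore those of the libraries as labelled. Of the genes that mark astrocytes, the ACSA-2 antigen gene Atp1b2 was at 4328 to 5679 CPM (counts scaled to library size with TMM factors), and all 14 markers summed to 32506 to 38296 CPM. The 10 oligodendrocyte markers summed to 42977 to 92808 CPM, more than the astrocyte markers in every library.

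The order of the members by level was read per kilobase of annotated exon, since longer transcripts collect more counts. Bsg, which encodes basigin, a surface glycoprotein of endothelial cells that other brain cells also make, was highest with a mean over the 5 libraries of 192 CPM per kilobase. The pericyte genes Rgs5 and Vtn followed with 41.6 and 32.3 CPM per kilobase. A group of 6 genes, Itm2a, Angpt1, Higd1b, Pdgfrb, Atp13a5 and Kcnj8, lay between 2.49 and 5.70 CPM per kilobase. The junction and adhesion genes that define endothelial cells were far lower, with means of 0.731 for Cldn5, 0.132 for Pecam1 and 0.115 for Cdh5. At the bottom were Erg, Cnn1 and Tagln with 0.0528, 0.0526 and 0.00626 CPM per kilobase, the 3 members that were too low to be tested. Neighbours in this order such as Itm2a and Angpt1, with means of 5.70 and 5.66 CPM per kilobase, did not differ beyond their spread over libraries.

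**Figure D1:**
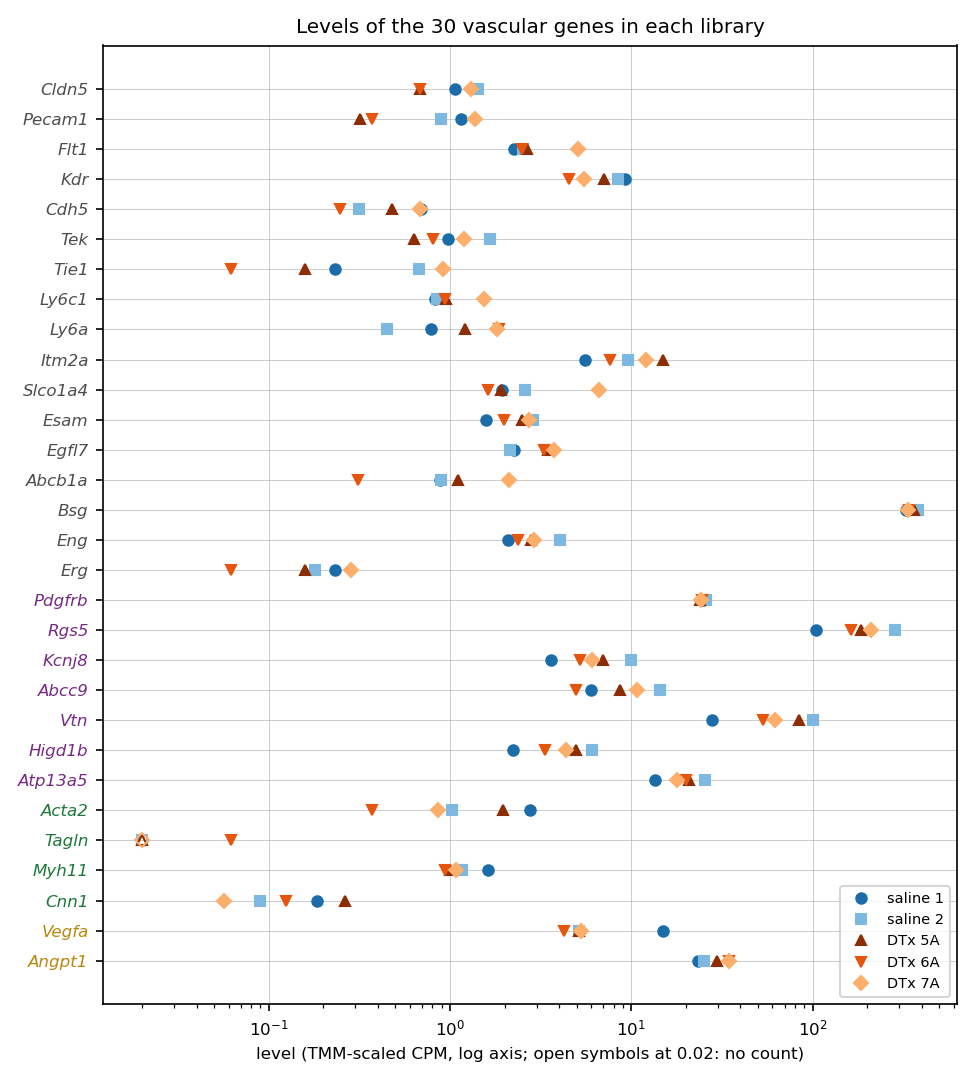
Level of each of the 30 genes in each of the 5 libraries, in TMM-scaled CPM on a log axis. Gene names are grey for endothelial, purple for pericyte, green for smooth muscle and gold for ligand genes, and open symbols mark libraries with no count. Bsg and the pericyte genes Rgs5 and Vtn lie to the right, and every endothelial gene other than Bsg and Itm2a lies below 10 CPM.

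The DNA just upstream of the start site is shown for 4 of these genes, the pair of pericyte genes with the highest levels and the pair of VEGF receptor genes, because the pericyte pair leads the order of libraries described below and the receptor pair had fold changes of opposite sign. The sequences are the 250 bases before the start in RefSeq's GRCm38.p6 annotation, printed 5′ to 3′ on the gene's own strand, and capitals mark GGAA, the core that ETS factors of endothelial cells bind, or its reverse complement TTCC.
Rgs5 (chr1:169655251-169655500, plus strand): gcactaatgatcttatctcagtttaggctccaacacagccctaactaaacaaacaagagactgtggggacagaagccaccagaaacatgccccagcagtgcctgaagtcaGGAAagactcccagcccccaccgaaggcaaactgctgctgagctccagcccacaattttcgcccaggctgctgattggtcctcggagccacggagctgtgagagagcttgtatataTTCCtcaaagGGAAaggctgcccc
Vtn (chr11:78498870-78499119, plus strand): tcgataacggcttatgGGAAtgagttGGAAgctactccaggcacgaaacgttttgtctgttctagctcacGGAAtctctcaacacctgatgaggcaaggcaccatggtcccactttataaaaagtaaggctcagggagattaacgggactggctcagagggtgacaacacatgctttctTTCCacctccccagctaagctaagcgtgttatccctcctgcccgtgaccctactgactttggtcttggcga
Kdr (chr5:75978456-75978705, minus strand): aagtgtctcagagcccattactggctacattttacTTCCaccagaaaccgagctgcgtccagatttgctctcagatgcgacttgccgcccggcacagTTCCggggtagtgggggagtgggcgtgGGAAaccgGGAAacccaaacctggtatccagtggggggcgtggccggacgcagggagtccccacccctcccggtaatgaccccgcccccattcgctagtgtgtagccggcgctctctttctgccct
Flt1 (chr5:147726012-147726261, minus strand): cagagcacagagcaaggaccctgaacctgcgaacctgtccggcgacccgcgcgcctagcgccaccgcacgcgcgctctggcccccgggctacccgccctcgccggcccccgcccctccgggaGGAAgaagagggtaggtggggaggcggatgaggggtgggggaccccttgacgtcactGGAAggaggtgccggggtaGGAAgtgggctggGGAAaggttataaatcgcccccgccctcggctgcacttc
The RefSeq table held windows for 20 of the 30 members, 26 windows in all. GGAA on either strand occurred in 93.4% of the 32851 windows of the whole table, so its presence in these 4 separates them from nothing. The longer GGAAGT, on either strand and always including a GGAA, occurred in 7 of 17 windows of 12 endothelial genes, among them 1 match each in Kdr and Flt1, in 0 of 5 pericyte windows, and in 19.7% of all windows. The CArG box is the element of serum response factor in smooth muscle genes, taken here as CC, 6 bases of A or T, and GG. It was in 1.47% of all windows and in none of the 2 smooth muscle and 5 pericyte windows. These letters may lie outside the window, and this strict form passes over near matches. The Acta2 window, for example, held ccctatatgg and ccttgtttgg, each with 1 inner base other than A or T. ACGTG, the core of the hypoxia-responsive element, was in 1 of 2 Vegfa windows and in 16.6% of all windows, on either strand. The Vegfa match lay in the window at 46025164 to 46025413, inside the annotated gene. The Vegfa window directly before the gene's start held none. For Kdr and Flt1 the start used lies inside the annotated extent of the gene. A match is a description of the letters and not a binding site.

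Over all members the comparison of DTx with saline gave 0 calls of 27 with edgeR's quasi-likelihood test at an adjusted p of 0.05, where 0.0322% of all genes tested were called. That share is 5 genes, the sex-chromosome genes Xist, Ddx3y, Eif2s3y, Kdm5d and Uty, and no other gene of the table passed. The smallest adjusted p among the members was 0.789. DESeq2, edgeR's likelihood ratio test and limma-voom also called 0 members, against 0.729%, 0.599% and 0.0322% of all genes. At an unadjusted p under 0.05, 2 members were higher (Ly6a and Angpt1) and 1 was lower (Kdr) with the quasi-likelihood test, against 4.29% of genes higher and 2.0% lower over the table. DESeq2, the likelihood ratio test and limma-voom had 4, 3 and 4 members at that p. The share of all genes at that p was not taken for these 3 tests, so nothing is read from their counts. Of the 27 members, 12 had a log2 fold change above 0, where 50.3% of all genes did, and the median of their log2 fold changes was -0.06, beside 0.0017 for all genes. The values of the groups did not overlap for 4 members with DTx higher (Ly6c1, Ly6a, Egfl7 and Angpt1) and for 3 with DTx lower (Kdr, Pdgfrb and Myh11), against 12.1% and 8.99% of all genes. In bulk libraries such as these, fewer cells of a type and less RNA per cell cannot be told apart.

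**Figure D2:**
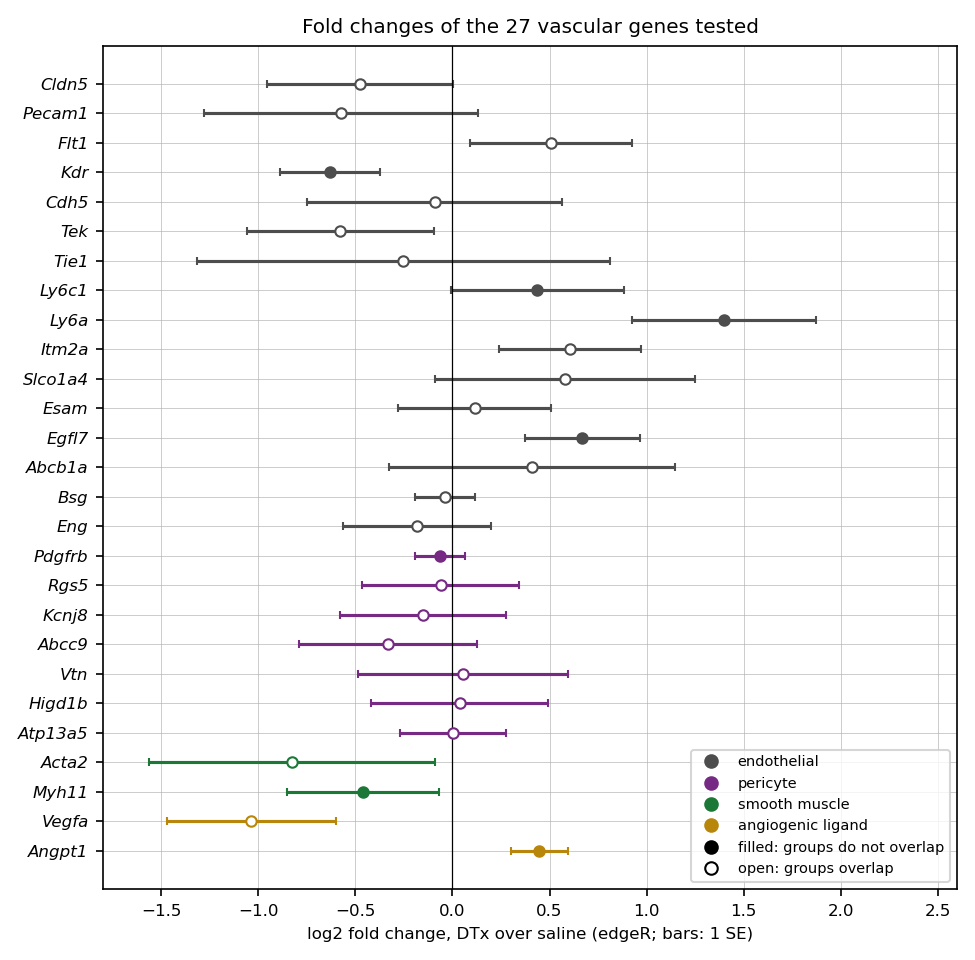
Log2 fold change of DTx over saline for the 27 genes tested, with bars of 1 SE from edgeR's quasi-likelihood fit, coloured by class. Filled points are genes whose 2 groups do not overlap, and Ly6a at 1.40 and Vegfa at -1.04 are farthest from 0.

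Among the ligands, Angpt1, which encodes angiopoietin-1, an agonist of the endothelial receptor Tek that stabilises vessels, lies on chromosome 15 (42424667 to 42676977, GRCm38). Its level was 23.3 and 25.1 CPM in saline replicates 1 and 2, and 29.5, 34.7 and 34.7 CPM under DTx. Every DTx library was above both saline libraries, with library 5A the nearest to them. The fold change was 1.36, a log2 fold change of 0.45 ± 0.15 (SE, n = 2 and 3), with edgeR adjusted p = 0.789. With a library left out the log2 fold change ranged from 0.39 to 0.52. An annotated gene on the opposite strand shares exon sequence with Angpt1, and its reads cannot be told apart without strand.

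Vegfa, the main ligand of endothelial growth and a target of hypoxia-inducible factors, lies on chromosome 17 (46016993 to 46032377). Its level was 14.9 and 5.16 CPM in saline replicates 1 and 2, and 5.13, 4.23 and 5.30 CPM under DTx. Saline replicate 1 stood alone above the other 4 libraries, and the groups overlapped. The log2 fold change was -1.04 ± 0.44 (SE, edgeR adjusted p = 0.789), and without saline replicate 1 it was -0.08. The sum of 8 markers of ependyma and choroid plexus was also highest in saline replicate 1, at 216.8 CPM against 28.2 CPM in replicate 2. Foxj1, Tmem212 and Ccdc153, at 79.4, 47.7 and 41.7 CPM, carried most of it in replicate 1. Not every marker had that order, and Rarres2, Kl and Aqp1 were highest in 5A. Ttr had 15 counts in saline replicate 1. These genes were named after their values were seen. In DTx library 5A the same markers summed to 134.1 CPM with Vegfa at 5.13 CPM, and in 6A and 7A to 39.7 and 32.0 CPM, and their part in the Vegfa level was not tested.

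Kdr lies on chromosome 5 (75932827 to 75979072). Another VEGF-A receptor, Nrp1, from the angiogenic list and named after its value was seen, was at 59.3 to 93.0 CPM over the 5 libraries. The level of Kdr was 9.19 and 8.43 CPM in saline replicates 1 and 2, and 7.03, 4.54 and 5.47 CPM under DTx. All 3 DTx libraries were below both saline libraries. The level was 1.55-fold lower with DTx, a log2 fold change of -0.63 ± 0.26 (SE, n = 2 and 3), with edgeR adjusted p = 0.789.

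Flt1, the other VEGF receptor, which binds VEGF-A and placental growth factor and can act as a decoy, lies on the same chromosome (147561604 to 147726438). Its level was 2.26 and 2.51 CPM under saline against 2.64, 2.49 and 5.07 CPM under DTx. Library 7A stood apart and the rest overlapped. The log2 fold change of 0.51 ± 0.42 (SE, edgeR adjusted p = 0.829) became 0.10 without 7A. Flt1 and Kdr therefore had fold changes of opposite sign, and the difference between them was not tested.

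Tek, the receptor of the angiopoietins, was at 0.970 and 1.66 CPM under saline against 0.634, 0.809 and 1.20 CPM under DTx. Tie1, its orphan relative, was at 0.231 and 0.672 CPM and 0.159, 0.0622 and 0.911 CPM, from 1 to 16 counts per library. Both overlapped between the groups, with log2 fold changes of -0.58 ± 0.48 and -0.25 ± 1.06 (SE) and edgeR adjusted p of 0.83 and 0.968. Eng, encoding endoglin, a co-receptor for TGF-beta family ligands, was at 2.08 to 4.03 CPM in all libraries, with its lowest and highest values both in saline, and it shares exon sequence with Fpgs on the opposite strand.

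**Figure D3:**
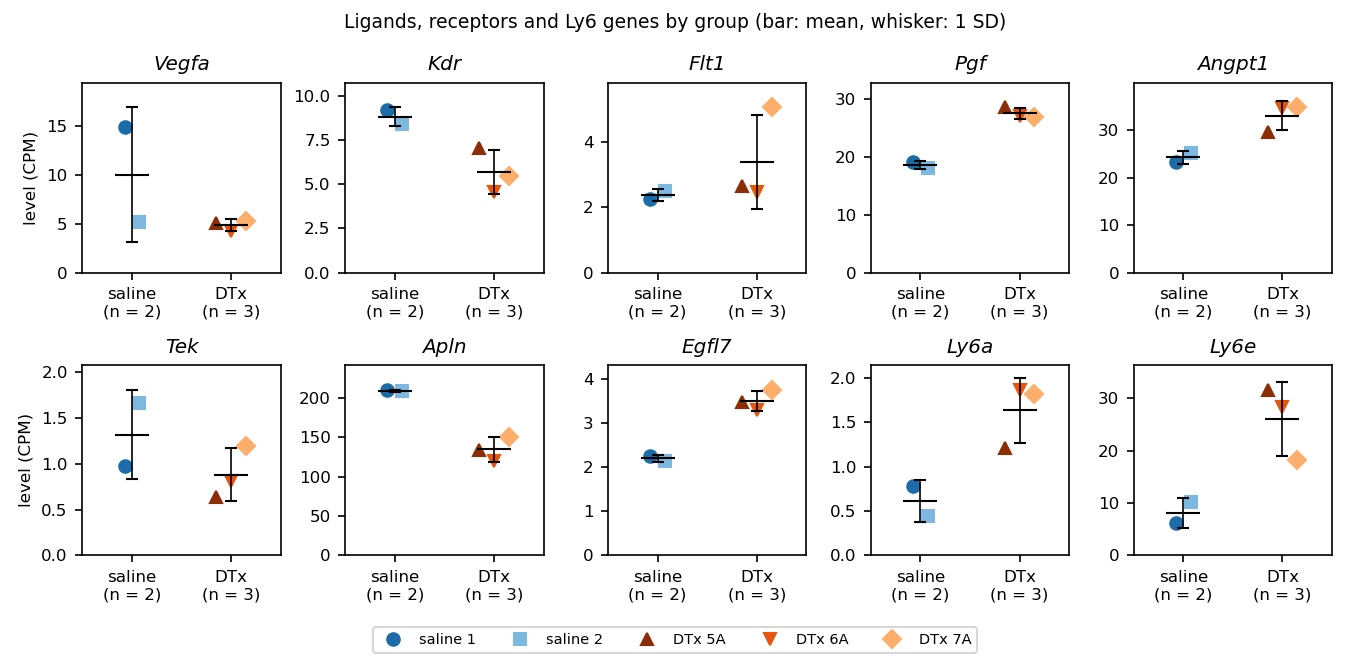
Levels in CPM of the endothelial receptors Kdr, Flt1 and Tek and the secreted ligands Vegfa, Pgf, Angpt1 and Apln in each library, with Egfl7 and the Ly6 genes Ly6a and Ly6e, by group. Horizontal bars are group means and whiskers 1 SD, over 2 saline and 3 DTx libraries. Kdr and Apln are lower and Pgf, Angpt1, Egfl7, Ly6a and Ly6e higher in all DTx libraries, and saline replicate 1 stands alone for Vegfa.

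The other genes of angiogenic signalling were read from a list of 38, of which 30 were tested. There were 17 higher and 13 lower, with a median log2 fold change of 0.08. With edgeR's quasi-likelihood or likelihood ratio test and with limma-voom 0 passed the threshold, and with DESeq2 1 passed, Apln. Pgf, which encodes placental growth factor, a Flt1 ligand (chromosome 12, 85166637 to 85177785), was at 19.1 and 18.1 CPM under saline against 28.6, 27.1 and 27.001 CPM under DTx. The groups were separate and tight, with a log2 fold change of 0.57 ± 0.13 (SE, edgeR adjusted p = 0.761). Apln, encoding apelin, a peptide ligand of an endothelial receptor (chromosome X, 48025146 to 48034853), was at 209.9 and 208.4 CPM under saline against 134.3, 119.6 and 150.5 CPM under DTx. It was lower in all 3, with a log2 fold change of -0.63 ± 0.15 (SE) and an adjusted p of 0.761 with edgeR's quasi-likelihood test, 0.0914 with its likelihood ratio test, 0.0156 with DESeq2 and 0.786 with limma-voom. It is one of the genes on a sex chromosome. Its receptor gene Aplnr, named after its value was seen, had 4 and 3 counts under saline and 2, 0 and 0 under DTx. Sema3a, a secreted semaphorin, had 2 counts in saline and 55 with DTx, a ratio of 23.01 (95% exact interval 6.07 to 195, counting error only), with an edgeR adjusted p of 0.789.

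The 20-gene list of hypoxia responses, which includes Vegfa, had 9 members higher and 10 lower of 19 tested, a median of -0.01 and 0 past the threshold with any of these 4 tests. Ddit4, an inhibitor of mTOR signalling, was at 66.99 and 94.2 CPM under saline against 94.9, 118.2 and 130.8 CPM under DTx (log2 fold change 0.51 ± 0.21 SE, edgeR adjusted p = 0.789). Pdk1, the pyruvate dehydrogenase kinase, averaged 28.9 CPM under saline (SD 4.19, n = 2) against 34.2 under DTx (SD 2.72, n = 3), with overlap. Hif1a itself had a log2 fold change of 0.12 ± 0.23 (SE), and it was named after its value was seen.

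Of the 17 endothelial genes 16 were tested, with 8 above and 8 below 0 and a median log2 fold change of 0.04. The genes of cell junctions and adhesion were all low. Cldn5, the tight-junction claudin of the blood-brain barrier, was at 1.06 and 1.43 CPM under saline against 0.687, 0.684 and 1.31 CPM under DTx, from 11 to 32 counts. Pecam1, an adhesion molecule of endothelial contacts, was at 1.154 and 0.897 CPM under saline against 0.317, 0.373 and 1.37 CPM under DTx. Cdh5, the vascular cadherin, was at 0.249 to 0.693 CPM in all libraries. Library 6A was lowest for Cldn5 and Cdh5 and 5A for Pecam1, and the groups overlapped for all 3. Esam, another junction molecule, was at 1.57 to 2.87 CPM with a log2 fold change of 0.11 ± 0.39 (SE).

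Both efflux and uptake transporters among the members, Slco1a4 and Abcb1a, had their highest level in library 7A. Slco1a4, an organic anion transporter, was at 1.94 and 2.6 CPM under saline against 1.90, 1.62 and 6.66 CPM under DTx. Abcb1a, the P-glycoprotein efflux pump, was at 0.877 and 0.897 CPM under saline against 1.1, 0.311 and 2.11 CPM under DTx. Other barrier transporters, from the list of other endothelial genes and named after their values were seen, were mixed in this respect. Abcg2 was also highest in 7A, at 8.50 and 10.3 CPM under saline against 8.88, 8.89 and 11.2 CPM under DTx. Slc2a1, Slco1c1, Mfsd2a and Slc16a1 were all highest in saline replicate 2, and Slco1c1 was lowest in 7A, at 31.8 CPM against 67.9 CPM in saline replicate 2. The transporters highest in saline replicate 2 ranged from 31.8 to 164 CPM, where Cldn5 had at most 1.43 CPM. Which cells they came from was not tested. Without 7A the log2 fold changes of Slco1a4 and Abcb1a turned from 0.58 and 0.41 to -0.36 and -0.30. Library 7A was the highest for 7 of the 16 endothelial genes tested, against 15.1% of all genes, and for 0 of 7 pericyte genes. Slco1a4 and Abcb1a have close relatives in the mouse genome and Abcb1a an annotated overlap on the opposite strand, so their counts are uncertain.

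Of the other endothelial members Egfl7, Itm2a and Bsg, only Egfl7 had groups that did not overlap. Egfl7, an endothelial secreted factor that hosts a microRNA (chromosome 2, 26581083 to 26592682), was at 2.26 and 2.15 CPM under saline against 3.49, 3.30 and 3.76 CPM under DTx. The log2 fold change was 0.67 ± 0.30 (SE, edgeR adjusted p = 0.797). Its exons overlap those of Agpat2 on the opposite strand, so its counts are uncertain. Itm2a, a membrane protein of endothelial cells encoded on chromosome X, was at 5.54 and 9.59 CPM under saline against 14.96, 7.59 and 12.02 CPM under DTx, with overlap. Bsg had the smallest SE of the endothelial genes and was at 326 and 382 CPM under saline against 361, 339 and 334 CPM under DTx (log2 fold change -0.04 ± 0.16 SE). Erg, the ETS factor of endothelial identity, had 18 counts in all and was not tested.

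Ly6a and Ly6c1 encode small GPI-anchored surface proteins of brain endothelium, and Ly6a is also induced by interferon. Ly6a (chromosome 15, 74994877 to 74998031) was at 0.785 and 0.448 CPM under saline against 1.22, 1.87 and 1.82 CPM under DTx, from 10 to 32 counts. Every DTx library was above both saline libraries, with a log2 fold change of 1.40 ± 0.47 (SE, n = 2 and 3, edgeR adjusted p = 0.789). Ly6c1 was at 0.831 and 0.852 CPM under saline against 0.951, 0.933 and 1.54 CPM under DTx, with log2 fold change 0.44 ± 0.45 (SE, edgeR adjusted p = 0.86), or 0.16 without 7A. Ly6e, a related gene from the list of other endothelial genes that is also interferon-induced, was at 6.14 and 10.2 CPM under saline against 31.6, 28.4 and 18.1 CPM under DTx (log2 fold change 1.67 ± 0.33 SE). Its adjusted p was 0.759 with edgeR's quasi-likelihood test and 0.786 with limma-voom, which miss the threshold, and 0.0013 with DESeq2 and 0.0039 with edgeR's likelihood ratio test, which pass it. A list of 18 interferon-induced genes summed to 106.7 and 126.9 CPM under saline against 421.8, 757.6 and 230.8 CPM under DTx, with all 17 tested above 0. Of these 17, 0 passed the threshold with edgeR's quasi-likelihood test or limma-voom, 11 with DESeq2 and 12 with edgeR's likelihood ratio test, and the part of this list in the Ly6 levels was not tested. Reads of near-identical Ly6 genes may be split between them, so these counts are uncertain.

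The 30 other endothelial genes read as a list gave 22 tested, with 13 higher and 9 lower, and a median log2 fold change of 0.11. With edgeR's quasi-likelihood test and limma-voom 0 passed the threshold, and with DESeq2 and the likelihood ratio test 1 passed, Ly6e. After Ly6e, the smallest p belonged to Slc16a1, a monocarboxylate transporter, whose mean was 126 CPM under saline (SD 23.4, n = 2) against 94.9 under DTx (SD 13.8, n = 3), and to Ramp2, a subunit of the adrenomedullin receptor, at 9.96 ± 0.436 and 12.9 ± 0.953 CPM. Ramp2 did not overlap between groups and Slc16a1 did, and edgeR's adjusted p was 0.797 for both. The 10 genes of leukocyte adhesion and venous endothelium gave 5 tested, all 5 above 0, with a median of 0.61 and 0 past the threshold with any of the 4 tests. Icam1, which holds leukocytes on activated endothelium and is also made by glia, was at 0.518 ± 0.472 and 2.82 ± 0.858 CPM, and Plvap, of fenestrated endothelium, at 3.20 ± 0.609 and 4.88 ± 0.563 CPM, both without overlap. Sele, the endothelial selectin, had 0 counts in every library. Cd74, a chaperone of class II molecules that macrophages make, was at 115.6 CPM in library 5A and 4.6 in 6A, where the 12 monocyte and border macrophage markers summed to 130.0 and 17.6 CPM.

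All 7 pericyte genes were tested, with 3 above and 4 below 0. Rgs5, a regulator of G-protein signalling and a leading pericyte marker (chromosome 1, 169655501 to 169695813), was at 103.8 and 284.2 CPM in saline replicates 1 and 2, and 185.0, 163.5 and 209.8 CPM under DTx. The saline libraries bracketed all 3 DTx libraries. The log2 fold change between groups was -0.06 ± 0.40 (SE, n = 2 and 3, edgeR adjusted p = 0.976), while saline replicate 2 was 2.74-fold above replicate 1.

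Vtn, encoding the matrix protein vitronectin that brain pericytes secrete (chromosome 11, 78499120 to 78502325), was at 27.8 and 100.4 CPM under saline against 84.0, 53.5 and 62.0 CPM under DTx. Its 3.61-fold span between the saline libraries was the widest of the class, and the DTx libraries again lay inside it (log2 fold change 0.05 ± 0.54 SE, edgeR adjusted p = 0.984). Higd1b, a mitochondrial protein gene enriched in pericytes (chromosome 11, 102835761 to 102844141), was at 2.22 and 6.05 CPM under saline against 4.97, 3.36 and 4.39 CPM under DTx.

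Kcnj8 and Abcc9 encode the pore and the sulfonylurea receptor of the ATP-sensitive potassium channel of pericytes, and they are neighbours on chromosome 6 with 16247 bases and no RefSeq gene between them. Kcnj8 was at 3.60 and 9.91 CPM under saline against 6.98, 5.22 and 6.04 CPM under DTx. Abcc9 was at 6.002 and 14.4 CPM under saline against 8.62, 4.98 and 10.8 CPM under DTx. Both were highest in saline replicate 2, and Abcc9, which an opposite-strand gene overlaps, was lowest in 6A. The log2 fold changes were -0.15 ± 0.43 and -0.33 ± 0.46 (SE), with edgeR adjusted p of 0.952 and 0.899.

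Atp13a5, a transport ATPase enriched in brain pericytes, was at 13.5 and 25.5 CPM under saline against 20.7, 20.1 and 17.8 CPM under DTx. Pdgfrb, the receptor that recruits pericytes, differed from the rest of the class. It was at 24.7 and 25.9 CPM under saline against 23.8, 24.6 and 24.3 CPM under DTx, a range of 23.8 to 25.9 CPM over all 5. Its groups did not overlap but lay close together, and the log2 fold change of -0.06 ± 0.13 (SE, edgeR adjusted p = 0.931) was smaller than its SE.

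**Figure D4:**
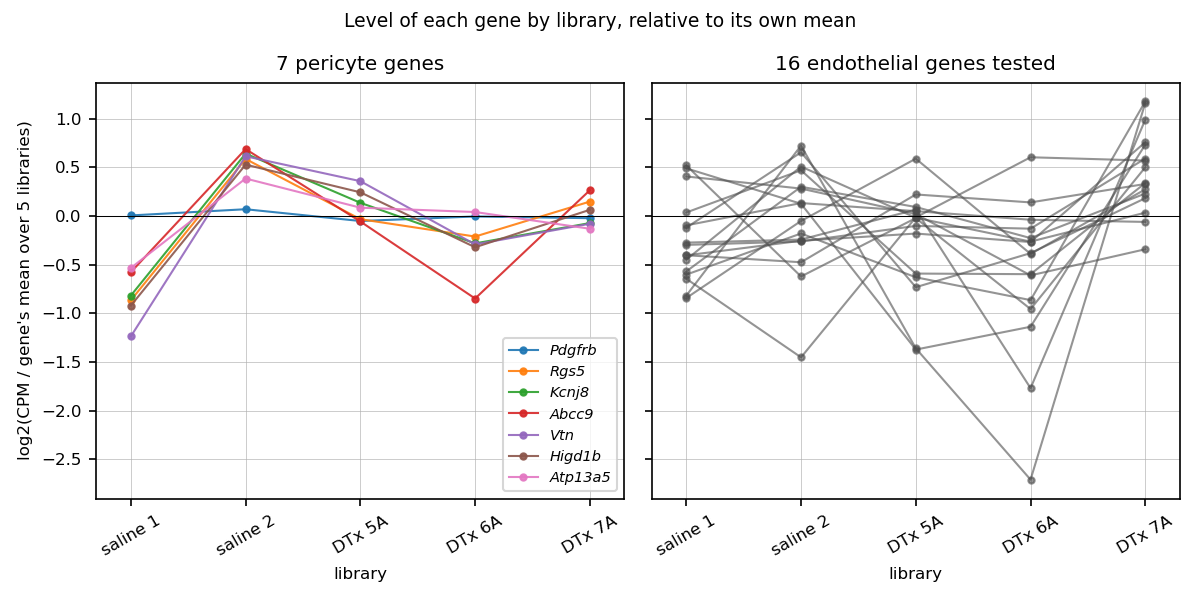
Level of each pericyte gene (left) and each endothelial gene tested (right) in the 5 libraries, as log2 of its CPM over its own mean, with lines joining the values of a gene. All 7 pericyte genes are highest in saline replicate 2 and 5 are lowest in saline replicate 1, while the endothelial genes follow no single order and 7 of 16 are highest in library 7A.

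The library pattern was counted over the class and over all genes. Saline replicate 2 was highest and replicate 1 lowest for 5 of 7 pericyte genes and 3 of 16 endothelial genes, against 7.49% of all genes tested. A ratio of at least 2 between saline replicates 2 and 1 was seen for 5 of 7 pericyte genes and 3.32% of all genes. The median of log2 ratios was 1.27 for the class, beside 0.0053 for all genes. This ratio was not particular to pericyte genes, since 12 of 14 microglia markers reached it, with a median of 1.33. These counts describe 2 libraries and carry no test. The summed level of the class was 181.7 and 466.4 CPM under saline against 334.2, 275.3 and 335.1 CPM under DTx. The median log2 fold change of the class was -0.06 between groups, 0.76 without saline replicate 2 and -0.60 without replicate 1, so the sign depended on which saline library was kept.

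Markers of other cells moved between these libraries as well. The 14 microglia markers summed to 138.2 and 306.7 CPM in saline replicates 1 and 2 and to 491.9, 360.9 and 298.6 CPM under DTx, so replicate 1 was lowest but replicate 2 was not highest. The oligodendrocyte markers summed to 60227 and 92808 CPM under saline against 42977, 44297 and 90697 CPM under DTx, with replicate 2 highest and 5A lowest. The 16 endothelial genes other than Bsg summed to 31.7 and 39.5 CPM under saline against 41.0, 29.2 and 49.8 CPM under DTx, and the 14 fibroblast markers to 493.3 and 932.4 CPM and 588.1, 401.9 and 863.9 CPM. Apod, a lipocalin gene, carried most of the fibroblast sum, with 395.4 and 821.0 CPM and 449.4, 296.5 and 740.4 CPM. The other 13 fibroblast markers summed to 98.0 and 111.4 CPM and 138.7, 105.4 and 123.4 CPM, highest in 5A and lowest in saline replicate 1. These 13 include Pdgfra, which also marks oligodendrocyte precursor cells. Pdgfra was at 29.96 and 46.98 CPM under saline against 30.82, 44.97 and 50.53 CPM under DTx, itself lowest in saline replicate 1. The place of saline replicate 1 in that sum therefore cannot be read as fibroblasts alone. The 11 neuron markers summed to 578.1 and 581.1 CPM under saline against 724.5, 903.0 and 746.9 CPM under DTx, higher in all DTx libraries. Of these neuron markers 10 were higher and 1 lower, and 0 passed the threshold with any of the 4 tests. The 14 astrocyte markers stayed within 32506 to 38296 CPM. The part of these cells in the pericyte levels was not tested.

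**Figure D5:**
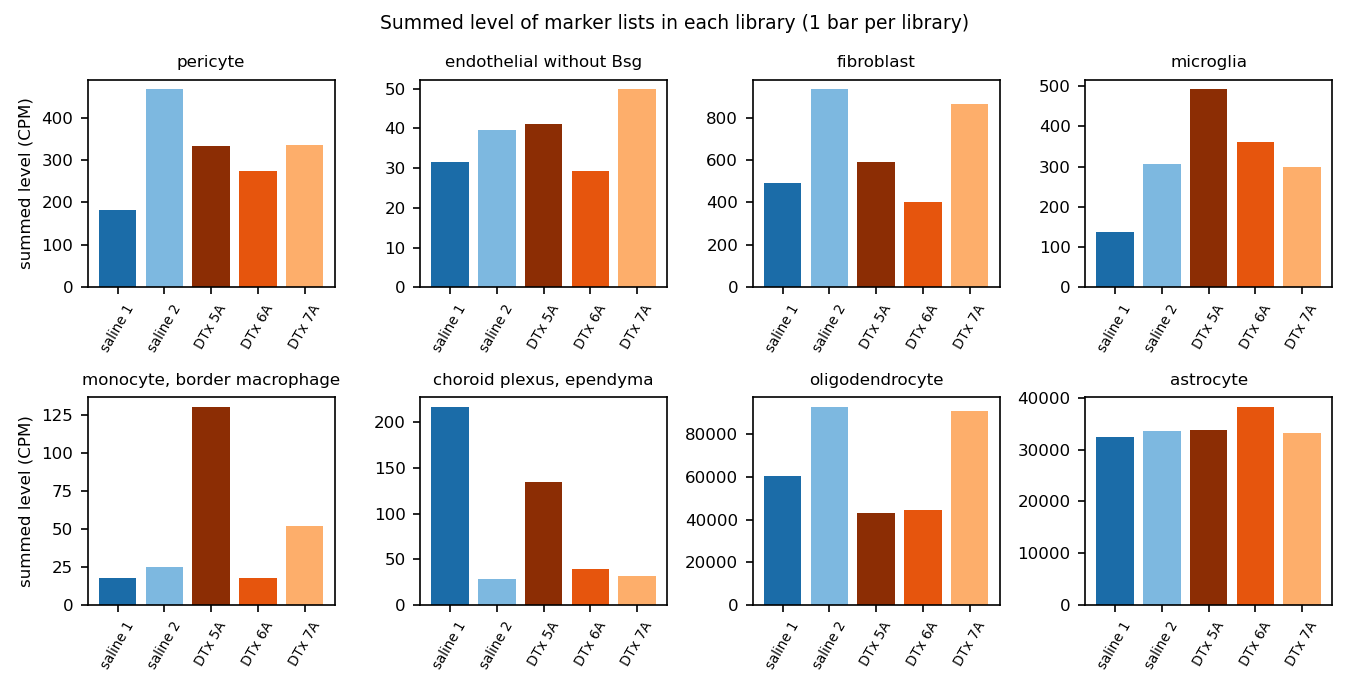
Summed level in CPM of 8 marker lists in each library, with 1 bar per library and an axis from 0 in each panel. The pericyte sum runs from 181.7 CPM in saline replicate 1 to 466.4 CPM in replicate 2, the endothelial sum without Bsg from 29.2 to 49.8 CPM, and the astrocyte sum differs least between libraries among the lists shown.

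Of the 4 smooth muscle members 2 were tested, and all 4 were below 3 CPM in every library. Acta2, the smooth muscle actin, was at 2.77 and 1.03 CPM under saline against 1.96, 0.373 and 0.854 CPM under DTx, with overlap and a log2 fold change of -0.83 ± 0.74 (SE, edgeR adjusted p = 0.836). Without saline replicate 1 it was 0.05. Myh11, the smooth muscle myosin heavy chain, was at 1.62 and 1.17 CPM under saline against 1.004, 0.933 and 1.08 CPM under DTx, without overlap (log2 fold change -0.46 ± 0.39 SE, edgeR adjusted p = 0.831). Cnn1, a calponin, had 14 counts in all libraries and Tagln, the transgelin gene, 1 count in library 6A, so neither was tested, and a difference was not detectable at this depth. In the wider mural list the myosin light chain gene Myl9 was at 8.82 to 19.9 CPM and its kinase gene Mylk at 6.84 to 8.19 CPM. Other muscle genes of that list were lower, with Lmod1 at 1.74 to 3.19, Tpm2 at 2.48 to 3.76, Pln at 1.65 to 3.81 and Des at 0.554 to 1.70 CPM. Myocd was too low to be tested. All of these but Myl9 were named after their values were seen.

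The list of 22 other mural genes gave 21 tested, with 8 higher and 13 lower, a median log2 fold change of -0.05 and 0 past the threshold with edgeR's quasi-likelihood test, its likelihood ratio test, DESeq2 or limma-voom. Mcam, an adhesion molecule of pericytes and smooth muscle (chromosome 9, 44134658 to 44142727), was at 26.2 and 32.95 CPM under saline against 14.6, 14.5 and 21.2 CPM under DTx. It was lower in all DTx libraries, with a log2 fold change of -0.82 ± 0.22 (SE, edgeR adjusted p = 0.778). Heyl, a Notch target of mural cells that astrocytes also express (chromosome 4, 123233556 to 123249870), was at 41.3 and 60.8 CPM under saline against 94.4, 154.3 and 82.4 CPM under DTx, higher in all 3 (1.112 ± 0.32 SE, adjusted p = 0.789). The order of the saline libraries was mixed in this list. Saline replicate 2 was above replicate 1 for 13 of the 21 genes and below it for 8, by at least 2-fold for 2 genes upward and 3 downward. Those 5, named after their values were seen, were Ndufa4l2 and Des upward, and Foxc1, Srf and Zic1 downward. Zic1, a transcription factor gene, was at 23.5 CPM in replicate 1 and 6.05 CPM in replicate 2, and the Notch receptor gene Notch3 at 21.6 and 15.4 CPM.

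The 14 genes of the vascular basement membrane, the sheet of matrix between vessel and endfoot, were all tested, with 4 higher and 10 lower, a median of -0.16 and 0 past the threshold with any of the 4 tests. Lama2 and Lamc1, laminin chains, averaged 38.4 ± 1.58 and 31.3 ± 0.492 CPM (SD, n = 2) under saline against 30.02 ± 2.7 and 24.1 ± 2.47 (SD, n = 3) under DTx, both without overlap and with edgeR adjusted p of 0.789. Sparc, a matrix-binding glycoprotein of glia and vessels, was at 3942 and 6288 CPM under saline against 9935, 11156 and 7352 CPM under DTx (log2 fold change 0.89 ± 0.30 SE, adjusted p = 0.789). The astrocyte endfoot genes, 10 of 10 tested, had 6 higher and 4 lower and a median of 0.13. Mlc1, with the smallest p, was at 745 and 1144 CPM under saline against 1296, 1624 and 1079 CPM under DTx. Its groups overlapped (0.50 ± 0.27 SE, edgeR adjusted p = 0.797). Aqp4, the water channel of the endfoot, was at 775 and 893 CPM under saline against 638, 587 and 771 CPM under DTx (-0.33 ± 0.19 SE, edgeR adjusted p = 0.803).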

How the data were processed

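The authors deposited raw counts per gene, 1 column per library and not pooled. STAR 2.7.5c and featureCounts 2.0.1, with fastp 0.23.2 and edgeR 3.42.4, are listed in the submitters' processing notes, as are GRCm38 and mm10. Strand setting and annotation: not given in the sources used here. Saline columns were matched by the word Ctrl and their number, and DTx columns by group alone. The table holds 1 more per-sample column, left unused (a control library not analysed here). Every pair of libraries differed by more than sampling noise (chi-square per degree of freedom 14.2 or more).

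Counts were fitted in R 4.3.3 with edgeR 4.0.16 (TMM scaling, filterByExpr with a minimum count of 10, robust quasi-likelihood F test, Benjamini-Hochberg over 15532 genes, threshold 0.05). DESeq2 1.42.0, limma 3.58.1 (voom), the likelihood ratio test, other scalings and filters, a microglia covariate and each library left out were alternatives. The fit was tested on simulated data. Levels are TMM-scaled CPM computed from the deposited counts. CPM per kilobase used merged exons of GENCODE M21, and positions come from RefSeq (GRCm38.p6). Exons of 6 of the 30 members overlap a gene on the opposite strand.

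The members and lists were chosen with earlier results of these data known. All 30 members are named, and values in every library are given for those with the smallest p in each class. Of each context list up to 3 genes with the smallest p are named. Lists are given by counts and medians, without a set test.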

Additional observations from a re-analysis of the deposited data

How the results depend on the processing

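None of the members tested passed the threshold under any of the 14 alternatives, with adjusted p of at least 0.303. Outside the members, Ly6e passed with DESeq2 and the likelihood ratio test and Apln with DESeq2. Of 374 alternative values of the 27 log2 fold changes, 33 had the opposite sign to the reported one, and 12 genes kept their sign throughout. The number of genes called in the whole table was 9 with no low-count filter, 111 with DESeq2, 93 with the likelihood ratio test and 3 with the microglia covariate, against 5, and 5 to 13 with a library left out (13 without 7A).

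Atp13a5 turned to -0.0045 with RLE scaling, -0.011 with no filter and -0.0044 with DESeq2, and with limma-voom Rgs5 was 0.11 and Kcnj8 0.016. With the microglia covariate Pecam1 was 0.092, Cdh5 0.72, Esam -0.23, Vtn -0.78, Higd1b -0.60 and Atp13a5 -0.47, and the median of the 2 ligands was 0.21. The smooth muscle median was -0.18 with no filter, which brings in genes with a few counts. The causes of the other changes were not tested.

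With a library left out the log2 fold changes ranged from -0.60 to 1.26 for Vtn, -0.52 to 0.93 for Higd1b, -0.39 to 0.54 for Atp13a5, -0.61 to 0.84 for Rgs5, -0.71 to 0.76 for Kcnj8 and -0.83 to 0.44 for Abcc9. They ranged from -0.55 to 0.57 for Cdh5, -0.26 to 0.61 for Esam, -0.82 to 0.70 for Tie1, -0.15 to 0.081 for Bsg, -0.59 to 0.37 for Eng, -0.36 to 0.91 for Slco1a4, -0.30 to 0.85 for Abcb1a and -1.62 to 0.048 for Acta2. The medians ranged from -0.21 to 0.45 for all members, -0.13 to 0.44 for endothelial, -0.60 to 0.76 for pericyte, -1.04 to -0.083 for smooth muscle and -0.55 to 0.15 for ligand genes. For the 6 pericyte genes named here the extremes came from leaving out saline replicates 1 and 2, and the lone saline library left was assumed to vary like the DTx libraries. No paired analysis was possible because the DTx columns carry numbers that are in no label. Low counts limit the endothelial and smooth muscle genes most: Cldn5 had 11 to 32 counts per library and Tie1 1 to 16.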

Other observations

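Cells that accompany vessels without belonging to the vessel wall also left transcripts. Of 14 fibroblast genes, all tested, 11 were higher and 3 lower with DTx, with a median log2 fold change of 0.31 and 0 past the threshold in edgeR's quasi-likelihood or likelihood ratio test, DESeq2 or limma-voom. Igf2, a growth factor of the meninges, was at 2.40 and 2.64 CPM under saline against 5.50, 3.48 and 4.50 CPM under DTx (log2 fold change 0.83 ± 0.32 SE, edgeR adjusted p = 0.789). Col6a2, a collagen chain, was at 1.25 and 1.97 CPM under saline against 0.846, 0.373 and 0.627 CPM under DTx (-1.37 ± 0.50 SE, adjusted p = 0.789). The groups did not overlap for either gene.

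Border macrophage genes were highest in library 5A. Mrc1, the mannose receptor of perivascular macrophages, was at 4.34 and 6.5 CPM under saline against 37.95, 5.10 and 14.7 CPM under DTx, and Lyve1, a hyaluronan receptor of such cells named after its value was seen, was at 0.185 and 1.43 CPM and 9.51, 0.373 and 1.77 CPM. Of the 12 markers 6 were tested, all 6 were above 0, and 0 passed with any of these tests. Hemoglobin genes, a sign of blood left in the vessels, were low everywhere. The 6 red cell genes summed to 13.2 and 9.73 CPM under saline against 8.40, 6.09 and 6.44 CPM under DTx, lower in all 3 DTx libraries, with Hbb-bs at -0.77 ± 0.30 (log2, SE, edgeR adjusted p = 0.789).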
